A study of Mus musculus with 2 samples.

Results

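The genes described here encode the enzymes of glycolysis, the pyruvate dehydrogenase complex and the citric acid cycle. They are a list of 33 genes chosen by symbol, 17 for glycolysis and lactate dehydrogenase and 16 for pyruvate oxidation and the citric acid cycle, out of 12395 genes with a listed transcript in mouse heart. The CHAPIR heart came from a C57BL/6 mouse that received a mimic of CHAPIR, a PIWI-interacting RNA (a class of small RNA best known from the germline), at 30 mg/kg from an osmotic minipump implanted on the back for 14 days. The NC heart came from a C57BL/6 mouse given a scrambled mimic by the same procedure, for which the labels state no separate dose. Age and sex were not stated in the labels used here. RNA sequencing gave 1 library per group, so no test, standard error or p-value can be had, and every difference below describes these 2 libraries only.

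Glycolysis splits glucose into pyruvate in the cytosol, with a small yield of ATP, and lactate dehydrogenase interconverts pyruvate and lactate. In mitochondria the pyruvate dehydrogenase complex makes acetyl-CoA, which the citric acid cycle oxidises to feed electrons to the respiratory chain. The adult heart draws most of its ATP from mitochondrial oxidation, chiefly of fatty acids but also of glucose and lactate, and uses muscle forms of several glycolytic enzymes.

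Levels are given in FPKM, fragments counted per kilobase of transcript and scaled by library size, a unit inferred from the values. It is a level per length, so genes can be added and compared on it. The hearts differed in Y-linked transcripts. In the CHAPIR heart Ddx3y was at 21.6, Eif2s3y at 22.1, Uty at 6.41 and Kdm5d at 1.45 FPKM, and these 4 genes were listed at 0 in the NC heart. The predicted genes Gm47283, Gm21860 and Gm21748, also placed on chromosome Y, were at 26.5, 2.71 and 2.98 FPKM in the CHAPIR heart, against 19.6, 1.27 and 1.19 FPKM in the NC heart. On the 4 named genes, apparent sex and mimic cannot be told apart in any result given here.

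Transcripts of these pathways were slightly and almost uniformly less abundant in the CHAPIR heart. The summed level of the 33 genes was 7449 FPKM in the CHAPIR heart and 8417 FPKM in the NC heart, so the CHAPIR sum was 88.5% of the NC sum. In whole heart, fewer cells of a type and less RNA per cell cannot be told apart. Ratios are given as log2(CHAPIR + 1) minus log2(NC + 1), which understates differences of low genes. The log2 ratio was below 0 for 32 of the 33 genes, against 49.1% of the 11416 genes tested, those at 1 FPKM or more in either heart. The exception was Pfkp, a minor phosphofructokinase gene in the heart. With quantile normalization the count below 0 was 29, with Ldha, Idh2 and Mdh2 also at or above 0. The median log2 ratio of the 33 genes was -0.17, against 0.01 over all genes tested.

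Abundant genes as a whole leaned the same way, so each gene is best read beside genes of its own level. Of the 33 genes, 24 had a mean of 100 FPKM or more, and all 24 had a ratio below 0 with a median of -0.15, against 66.1% of the 442 genes at that level, whose median was -0.07. A further 8 had a mean of 10 to 100 FPKM, all with a ratio below 0 and a median of -0.23, against 53.6% of 3651 genes and a median of -0.02. The differences were small. At a 1.5-fold threshold, 1 gene was lower (Pgk1) and 1 was higher (Pfkp), against 3.85% and 6.81% of all genes tested, shares too close to the members' own for the counts to say anything about the list. At a lower threshold of 25% higher or 20% lower (on values plus 1), 5 genes were lower, against 10.6% of all genes tested, and 1 was higher, against 14.9%. Of the 5, Pgk1 and Eno3 were among the 24 members at 100 FPKM or more, a level where 5.2% of all genes were lower. Dlst, Eno1 and Gpi1 were among the 8 members at 10 to 100 FPKM, where 7.92% of all genes were lower. Most members thus shared a small difference of the same sign, and few passed either threshold.

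**Figure D1:**
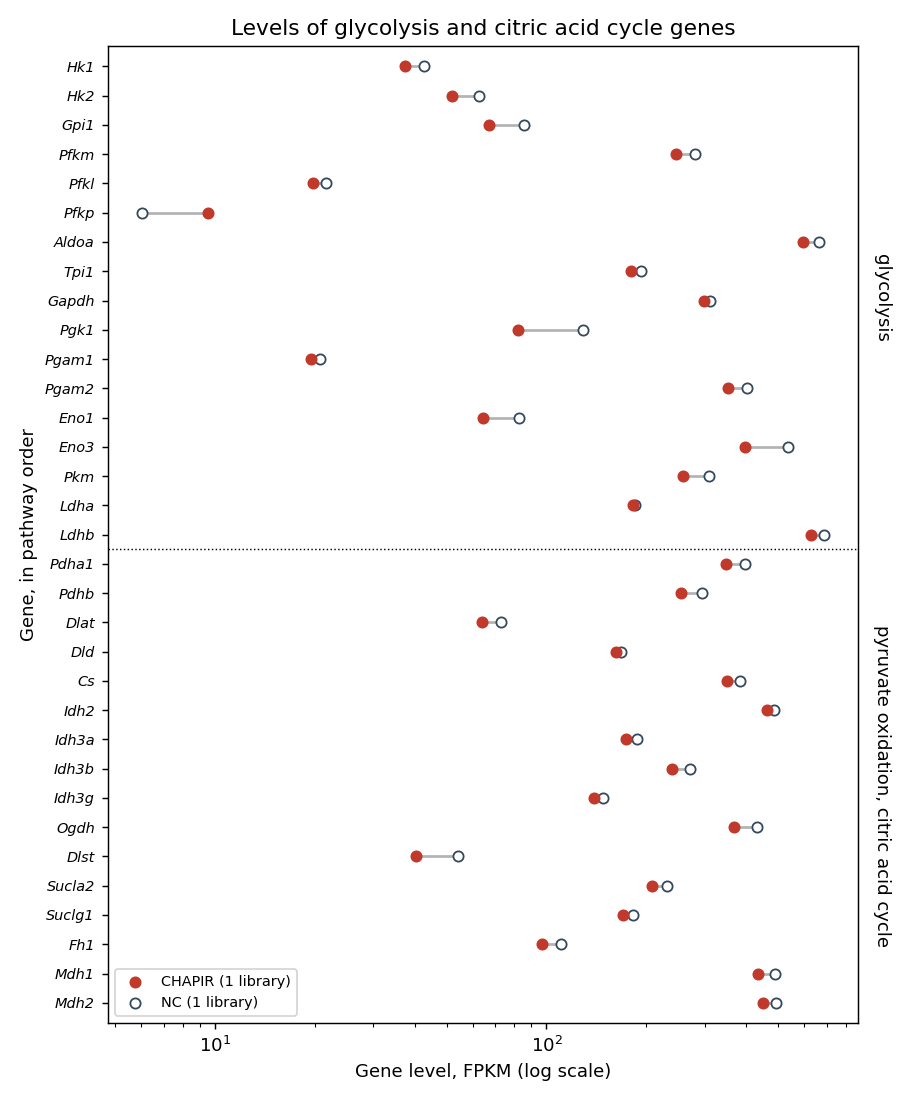
Levels of the 33 genes in pathway order, with the gene level in FPKM on a log axis. Filled points are the CHAPIR heart and open points the NC heart, 1 library each. The filled point lies left of the open one for every gene except Pfkp, and the widest gap among the lower genes is that of Pgk1, at 81.9 against 129 FPKM.

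The largest differences of the list in each direction belonged to Pgk1 and Pfkp, whose promoters are shown for that reason. Each covers 250 bases before and 50 after the transcription start, from RefSeq on GRCm38.p6, read 5′ to 3′ on the gene's strand. Pgk1 lies on the plus strand at chrX:106186850-106187149 and Pfkp on the minus strand at chr13:6648722-6649021. Capitals mark ACGTG and GCGTG on either strand (CACGT and CACGC when read on the other), the core letters to which hypoxia-inducible factors bind in many glycolytic genes.
Pgk1: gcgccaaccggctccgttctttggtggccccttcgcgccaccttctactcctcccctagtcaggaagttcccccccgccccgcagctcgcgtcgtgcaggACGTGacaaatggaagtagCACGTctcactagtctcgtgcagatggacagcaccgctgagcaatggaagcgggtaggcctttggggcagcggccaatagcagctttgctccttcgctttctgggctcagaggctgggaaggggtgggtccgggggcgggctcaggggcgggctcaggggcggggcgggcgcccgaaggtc
Pfkp: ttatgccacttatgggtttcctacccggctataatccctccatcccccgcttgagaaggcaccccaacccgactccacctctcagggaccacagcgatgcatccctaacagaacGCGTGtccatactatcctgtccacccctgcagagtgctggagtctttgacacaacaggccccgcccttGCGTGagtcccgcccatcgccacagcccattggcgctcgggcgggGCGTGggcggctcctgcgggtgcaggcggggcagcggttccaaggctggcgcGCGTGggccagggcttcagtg
The Pgk1 window held ACGTG in 2 places, and the Pfkp window held GCGTG in 4. A promoter was in the table for 32 of the 33 genes, 47 windows in all. ACGTG was in 42.6% of these windows, against 19.6% of all 32851 promoter windows and 25.3% of those of genes tested. GCGTG was in 53.2%, against 32.4% of all windows and 50.2% of those of genes tested. AAGGTCA, letters bound by oestrogen-related receptors, which act on mitochondrial genes, was in 3 of the 47, those of Eno1, Ogdh and Tpi1, against 4.72% of all windows and 3.13% of those of genes tested. Windows of 1 gene can overlap, so the shares were also counted by gene. ACGTG was in 40.6% of the 32 genes, against 21.8% of all genes with a promoter and 29.6% of those tested. GCGTG was in 56.25%, against 35.2% and 56.23%, and AAGGTCA in 9.375%, against 5.38% and 3.80%. CACGTG holds ACGTG on both strands, and a match describes letters only.

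Glycolysis opens with phosphorylation of glucose by hexokinase, which traps it in the cell. Hk1, the hexokinase of most tissues, was at 37.4 FPKM in the CHAPIR heart and 42.7 FPKM in the NC heart. Hk2, the insulin-responsive hexokinase of muscle, was at 51.8 FPKM in the CHAPIR heart and 62.8 FPKM in the NC heart, a log2 ratio of -0.27. The step total was 89.2 against 105 FPKM, and Hk2 made up 58.1% of it in the CHAPIR heart and 59.5% in the NC heart, so the balance of both enzymes was nearly the same. Gpi1, which turns glucose 6-phosphate into fructose 6-phosphate, was at 66.9 against 85.3 FPKM (log2 ratio -0.35).

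Phosphofructokinase, the main control point of glycolysis, has a muscle, a liver and a platelet gene. Pfkm, the muscle gene, was at 246 FPKM in the CHAPIR heart and 281 FPKM in the NC heart. Pfkl, the liver gene, was at 19.8 against 21.6 FPKM. Pfkp, the platelet gene, was the only member that was higher, at 9.54 FPKM in the CHAPIR heart and 6.01 FPKM in the NC heart, a log2 ratio of 0.59. That places it just past 1.5-fold, and it was not past it with a pseudocount of 5, with centred ratios or with quantile normalization. It was the least abundant member, with 3.47% of the step total in the CHAPIR heart and 1.95% in the NC heart, while Pfkm held 89.3% and 91.0%. A single transcript of Pfkp was listed, of 13 annotated, and 17.1% of its windows of 50 bases also occur in transcripts of Pitrm1, which was at 15.4 against 15.8 FPKM.

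The middle steps differed little, apart from phosphoglycerate kinase. Aldoa, the muscle aldolase that cleaves fructose bisphosphate, was at 595 FPKM in the CHAPIR heart and 662 FPKM in the NC heart. Tpi1, which interconverts the triose phosphates, was at 180.5 against 192 FPKM. Gapdh, the glyceraldehyde 3-phosphate dehydrogenase often used as a reference gene, was at 298 against 312 FPKM. The log2 ratios of Tpi1 (-0.09) and Gapdh (-0.07) were close to the median of other abundant genes.

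Pgk1, which makes the first ATP of the pathway, stood lowest of the 33 genes. Its level was 81.9 FPKM in the CHAPIR heart and 129 FPKM in the NC heart, 63.4% of the NC level and a log2 ratio of -0.65. Of all genes at 100 FPKM or more, 1.13% were 1.5-fold lower. Pgk1 (chromosome X, 106187100 to 106203699) rested on 1 listed transcript of 3 annotated. Of the 50-base windows of that transcript, 68.0% also occur in another gene, mostly Pgk1-rs7, and no source used here says how such reads were assigned, so the level is uncertain. Pgk1 is X-linked. The other X-linked members, Pdha1 and Idh3g, had log2 ratios of -0.18 and -0.09, and the 353 X-linked genes tested had a median of 0.01, against 0.00 for autosomal genes. Without the X-linked members, 29 of 30 ratios were below 0 with a median of -0.16, and no member was 1.5-fold lower.

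Phosphoglycerate mutase and enolase follow, each with a ubiquitous and a muscle gene. Pgam2, the muscle mutase, was at 353 FPKM in the CHAPIR heart and 404 FPKM in the NC heart. Pgam1, the ubiquitous form, was at 19.5 against 20.8 FPKM. Enolase was the second lowest step, with a total of 461 FPKM in the CHAPIR heart and 618 FPKM in the NC heart, 74.6% of the NC total. Eno3, the muscle enolase, was at 397 against 535 FPKM (log2 ratio -0.43). Eno1, the ubiquitous enolase, was at 64.2 against 82.7 FPKM (log2 ratio -0.36). Eno3 held 86.1% of the step in the CHAPIR heart and 86.6% in the NC heart, so both enolase genes were lower in nearly the same proportion.

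Pyruvate kinase and lactate dehydrogenase close the pathway. Pkm, which makes pyruvate and the second ATP, was at 257 FPKM in the CHAPIR heart and 308 FPKM in the NC heart, a log2 ratio of -0.26. Ldhb, whose subunit predominates in heart and favours the use of lactate, was at 627 against 688 FPKM. Ldha, whose subunit favours lactate formation, was at 183 FPKM in the CHAPIR heart and 184 FPKM in the NC heart and had the ratio closest to 0 of the 33 genes (-0.01). Ldha made up 22.5% of the step in the CHAPIR heart and 21.1% in the NC heart. Across the 9 enzymes and complexes with several members, no share of the gene sums differed by more than 1.69 percentage points, the value of Pfkm. With the most abundant transcript in place of the sum, the Ogdh share of its complex differed by -7.56 points and not 1.22, and with same-version transcripts the Pfkl share differed by -12.2 points and not 0.174.

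**Figure D2:**
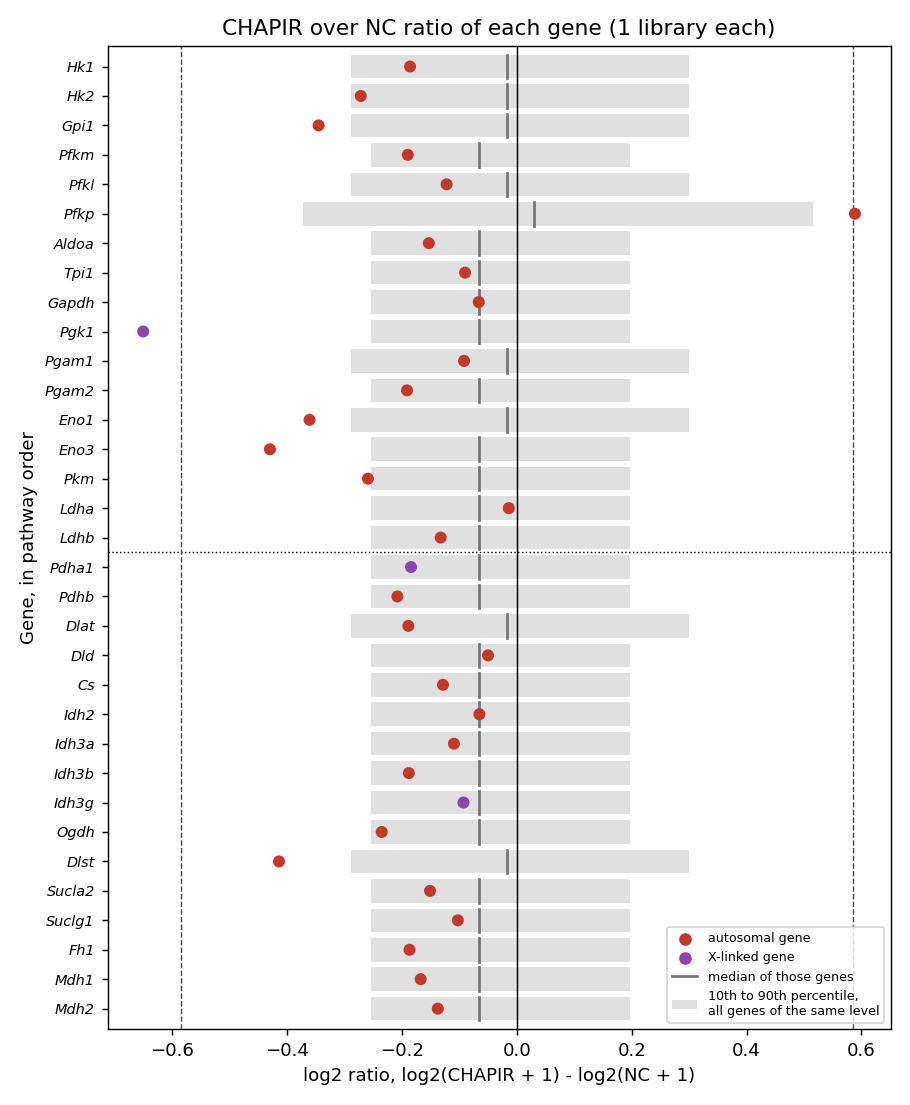
The log2 ratio of CHAPIR over NC for each of the 33 genes in pathway order (points, X-linked genes in purple). Grey bars span the 10th to 90th percentile and grey ticks the median of all genes with a mean of under 10, 10 to 100 or at least 100 FPKM, whichever the gene belongs to, and dashed lines mark 1.5-fold. Most points lie inside the bars but left of the ticks, with Pgk1 (-0.65) and Pfkp (0.59) at the ends.

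Pyruvate enters the mitochondrial pathway through the pyruvate dehydrogenase complex, whose summed level was 829 FPKM in the CHAPIR heart and 931 FPKM in the NC heart. Pdha1 and Pdhb encode the subunits of its decarboxylase. Pdha1 was at 349 against 396 FPKM. Pdhb was at 254 against 294 FPKM. Dlat, the acetyltransferase core, was at 63.8 FPKM in the CHAPIR heart and 72.8 FPKM in the NC heart. Dld, the dihydrolipoamide dehydrogenase that the oxoglutarate complex also uses, was at 163 against 168 FPKM, so it was the member of the complex with the ratio closest to 0 (-0.05).

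The 16 genes of pyruvate oxidation and the citric acid cycle lay close together, with log2 ratios between -0.41 (Dlst) and -0.05 (Dld), an SD across genes of 0.08 and a median of -0.16. The SD across the 17 glycolysis genes was 0.25, with a median of -0.19 and ratios from -0.65 (Pgk1) to 0.59 (Pfkp). Leaving out Pfkp, the least abundant member, took the SD across all members from 0.19 to 0.13, so the wider spread of glycolysis rested in part on single genes. Cs, the citrate synthase often used as a measure of mitochondrial content, was at 349.9 FPKM in the CHAPIR heart and 383 FPKM in the NC heart. Idh2, the NADP-linked isocitrate dehydrogenase of mitochondria, was at 464 against 486 FPKM. These enzymes of a single gene thus stood at 91.4% and 95.6% of the NC level.

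The NAD-linked isocitrate dehydrogenase is built from 3 gene products. Its catalytic subunit gene Idh3a was at 174 FPKM in the CHAPIR heart and 187 FPKM in the NC heart. Idh3b was at 238 against 272 FPKM. Idh3g was at 139 against 148 FPKM. The subunit shares moved by 1.47 points at most, so the proportions of the enzyme's transcripts were nearly equal in the hearts.

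The oxoglutarate dehydrogenase complex had the lowest ratio of the cycle's steps, with a total of 408 FPKM in the CHAPIR heart and 487 FPKM in the NC heart. Ogdh, its calcium-sensitive first enzyme, was at 368 against 433 FPKM (log2 ratio -0.24). Dlst, its succinyltransferase core, was at 40.3 against 54.0 FPKM, the lowest ratio of the cycle (-0.41), and rested on 1 of 13 annotated transcripts. The 5 genes of the remaining steps stood between 87.7% and 93.1% of the NC level.

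Among those, Sucla2 and Suclg1, subunits of succinyl-CoA synthetase, were at 209 and 169.8 FPKM in the CHAPIR heart, against 232 and 182 FPKM in the NC heart. Fh1, the fumarase, was at 96.9 against 110.5 FPKM. Mdh2, the malate dehydrogenase that closes the cycle, was at 449 FPKM in the CHAPIR heart and 494 FPKM in the NC heart. Mdh1, its cytosolic counterpart in the malate-aspartate shuttle, was at 434 against 488 FPKM. The mitochondrial and cytosolic malate dehydrogenases therefore differed by similar proportions, 90.9% and 89.0% of the NC level.

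Gene sums hid larger differences between transcripts. The 33 genes had 86 listed transcripts. Of the genes, 13 had 1 listed transcript, and of the 20 others 16 had transcripts on both sides of a ratio of 0. Some of these rested on very low transcripts, such as Hk2-203 (0.524 FPKM in the CHAPIR heart, against 0 as listed in the NC heart) and Tpi1-203 (0.627 against 0.415 FPKM). For 4 genes (Ogdh, Eno1, Eno3 and Hk1) a transcript's share of the gene moved by more than 10 percentage points, and for the other 16 by at most 7.58 points. The same counts were not made over all genes with several listed transcripts, so they cannot be read as particular to this list. Transcripts of a gene share most of their bases, the values are estimates that divide reads among them, and with 1 library per group the error of that division was not measured.

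Ogdh (chromosome 11, 6291633 to 6356642) showed the largest such difference. Ogdh-204 was at 169.8 FPKM in the CHAPIR heart and 411 FPKM in the NC heart, or 46.2% and 94.9% of the gene. Ogdh-201 was the reverse, at 164 FPKM in the CHAPIR heart and 14.7 FPKM in the NC heart. Their coding exons are the same in GENCODE M21, and they differ in the first exon (6291666 to 6291769 in Ogdh-204, 6291633 to 6291693 in Ogdh-201) and in the end of the last one. Together they held 90.7% of the gene in the CHAPIR heart and 98.3% in the NC heart, so most of the difference lay between annotated 5′ and 3′ ends.

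A smaller part of the Ogdh difference touched an internal coding exon. Ogdh-204 and Ogdh-201 carry an exon of 103 bases at chr11:6316978-6317080, while Ogdh-202 and Ogdh-203 carry in its place an exon of 91 bases at chr11:6316765-6316855. Both exons are shown from the plus strand of GRCm38, since they are what separates the coding forms.
Ogdh exon of 103 bases: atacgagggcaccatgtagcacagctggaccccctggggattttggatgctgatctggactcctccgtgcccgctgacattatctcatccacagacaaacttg
Ogdh exon of 91 bases: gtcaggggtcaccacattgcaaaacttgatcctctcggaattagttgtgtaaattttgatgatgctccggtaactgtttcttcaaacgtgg
Transcripts with the 91-base exon summed to 24.3 FPKM in the CHAPIR heart and 1.17 FPKM in the NC heart. As a share of all transcripts with either exon, that was 6.81% and 0.275%. Ogdh-203 also has an extra exon relative to Ogdh-202.

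Pkm has a well-known exchange of exons, in which the exon nearer the 5′ end gives the M1 enzyme of adult muscle and the next gives the M2 enzyme of many other and of growing cells. Pkm-202 carries the M1 exon at chr9:59675029-59675195 and Pkm-201 the M2 exon at chr9:59675568-59675734. Both have 167 bases and are shown from the plus strand of GRCm38, with the 64 bases that differ in capitals.
Pkm-202 exon: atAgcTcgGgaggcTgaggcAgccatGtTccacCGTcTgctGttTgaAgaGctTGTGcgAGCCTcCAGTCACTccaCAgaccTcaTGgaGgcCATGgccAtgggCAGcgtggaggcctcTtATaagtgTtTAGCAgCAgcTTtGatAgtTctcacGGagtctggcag
Pkm-201 exon: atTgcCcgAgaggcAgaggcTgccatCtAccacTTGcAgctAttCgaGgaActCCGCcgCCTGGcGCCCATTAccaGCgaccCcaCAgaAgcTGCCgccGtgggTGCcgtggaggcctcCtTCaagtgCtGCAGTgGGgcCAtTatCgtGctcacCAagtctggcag
Pkm-202 was at 187 FPKM in the CHAPIR heart and 201 FPKM in the NC heart. Pkm-201 was at 66.5 against 103 FPKM. The M2 form was thus 26.2% of both forms in the CHAPIR heart and 33.9% in the NC heart, and most of the lower Pkm level lay in it. Of the 50-base windows of Pkm-202, 39.3% also occur in other genes.

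In the enolases the transcripts also moved apart. Eno3-206 was at 273 FPKM in the CHAPIR heart and 466 FPKM in the NC heart. Eno3-201 was at 78.4 against 45.1 FPKM and Eno3-202 at 32.7 against 13.7 FPKM. These 3 have the same coding exons and differ mainly in their 5′ exons, so the coding form of Eno3 summed to 384 against 525 FPKM. For Eno1, the full-length Eno1-202 was at 29.4 against 6.39 FPKM, while Eno1-201, which starts downstream of the first exons of Eno1-202, was at 6.99 against 44.2 FPKM.

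Eno1 is the least certain of these genes. Of the 50-base windows of Eno1-201, 56.3% also occur in its near-copy Eno1b, which was at 4.09 FPKM in the CHAPIR heart, against 0 as listed in the NC heart. Hk1-205 was listed at 0 in the CHAPIR heart, against 4.95 FPKM in the NC heart, while Hk1-202, the lead transcript, was at 35.5 against 35.4 FPKM. Thus the lower Hk1 sum came from transcripts other than the leading one. In Aldoa, Aldoa-203, which starts further upstream than Aldoa-201 and has the same coding exons, was at 28.8 FPKM in the CHAPIR heart and 6.09 FPKM in the NC heart, beside 516 against 612 FPKM for Aldoa-201.

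**Figure D3:**
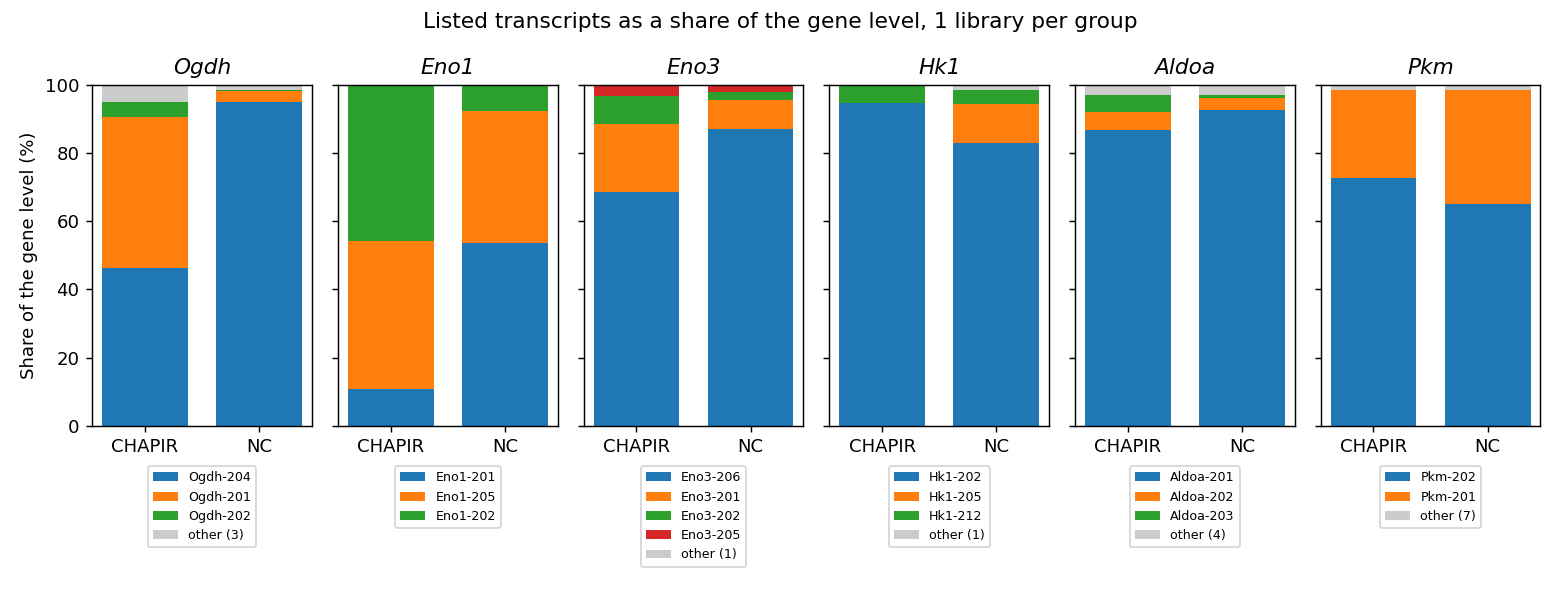
Share of the gene level held by each listed transcript, in percent, in the CHAPIR heart (left bar) and the NC heart (right bar) for 6 genes, 1 library per group. Transcripts under 3% in both libraries are summed in grey. Ogdh-204 holds 46.2% in the CHAPIR heart against 94.9% in the NC heart, while the bars of Pkm and Aldoa differ by under 10 points.

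Shared sequence limits other members as well. For Gapdh, 82.5% of the 50-base windows of its leading transcript occur in another annotated gene, and for Pgam1 41.5%. The share was 0 for 17 of the 33 genes. Among the genes with no such windows in the leading transcript of the NC heart were Eno3, Dlst, Ogdh, Hk2 and Pgam2. Other listed transcripts of a gene were not checked for shared windows.

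The other genes of the citric acid cycle and the pyruvate dehydrogenase complex went the same way. All 9 that were tested had a ratio below 0, with a median of -0.18, and none reached the lower threshold. Sdhc, a membrane anchor of succinate dehydrogenase, was at 82.3 FPKM in the CHAPIR heart and 96.0 FPKM in the NC heart, and the 4 succinate dehydrogenase genes Sdha, Sdhb, Sdhc and Sdhd had ratios between -0.22 and -0.18. The closest to 0 were those of cytosolic Aco1 (-0.06) and of Pdhx (-0.08), a structural subunit of the pyruvate dehydrogenase complex.

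Regulators around the pathways did not share one direction. Of 7 genes for the kinases and phosphatases that switch pyruvate dehydrogenase off and on, 4 had a ratio below 0. Pdk4, the kinase raised by fasting and fatty acids, was at 139 FPKM in the CHAPIR heart and 101 FPKM in the NC heart, and the phosphatase gene Pdp2 was at 5.19 against 6.96 FPKM. Pdk1 was at 31.0 against 36.2 FPKM and Pdk3 at 2.78 against 2.22 FPKM. Of 6 genes around phosphofructokinase, 3 were below 0. Pfkfb3, which makes the activator fructose 2,6-bisphosphate, was the 1 gene past 1.5-fold, at 10.9 against 5.52 FPKM, while Pfkfb2, the heart form, was at 6.89 against 10.1 FPKM. Tigar, a phosphatase of the same activator, was at 15.5 against 19.4 FPKM and Pfkfb1 at 6.81 against 6.06 FPKM.

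Glucose uptake and glycogen genes had a median of -0.10, with 11 of 15 below 0 and none past 1.5-fold. Slc2a4, the insulin-responsive glucose transporter, was at 96.0 FPKM in the CHAPIR heart and 98.6 FPKM in the NC heart. Gbe1, the glycogen branching enzyme, was at 15.8 against 14.8 FPKM, and the lowest were Slc2a8 (4.07 against 5.58 FPKM) and Ppp1r3c (41.7 against 50.6 FPKM), a targeting subunit of glycogen phosphatase. Lactate and pyruvate transport genes had a median of -0.10, from Mpc2, a subunit of the mitochondrial pyruvate carrier (124 against 153 FPKM), and the outer membrane channel gene Vdac1 (321 against 361 FPKM) to the other carrier subunit gene Mpc1 (161 against 158 FPKM) and Bsg (509 against 498 FPKM), which escorts lactate transporters. The pentose phosphate list had 4 of 7 below 0, with Tkt (2.59 against 4.21 FPKM) and Rpia (3.79 against 5.97 FPKM) lowest and G6pdx, its first enzyme (4.53 against 3.69 FPKM), and Pgls (16.8 against 14.7 FPKM) highest.

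The malate-aspartate shuttle and anaplerotic genes leaned as the members did. All 12 had a ratio below 0, with a median of -0.22, and 2 were 1.5-fold lower. Slc25a12, a mitochondrial aspartate-glutamate carrier, was at 9.35 FPKM in the CHAPIR heart and 24.5 FPKM in the NC heart, and Gpd1, the cytosolic glycerol 3-phosphate dehydrogenase, was at 15.6 against 30.9 FPKM. Slc25a13, the other such carrier, was at 43.7 against 46.3 FPKM, and Got2, the mitochondrial aspartate aminotransferase, at 301 against 311 FPKM. Of the other glycolytic paralogs 7 were tested, all low. Hk3, a hexokinase, was at 1.03 against 0.398 FPKM.

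Markers of cell types moved beside these values. The 10 cardiomyocyte markers were all present, with sums of 21535 FPKM in the CHAPIR heart and 22854 FPKM in the NC heart. Their median log2 ratio was -0.11, with 8 of 10 below 0, from Mybpc3 (-0.29) and Ryr2 (-0.28) to Tnnt2 (0.01) and Pln (0.02). Of 9 white adipocyte markers tested, 6 were 1.5-fold lower, with Adipoq at 1.35 against 9.87 FPKM, Car3 at 6.37 against 49.97 FPKM and Plin1, Cidec, Cfd and Retn (listed at 0 in the CHAPIR heart, as was Lep). Fabp4, which endothelial cells also express, was at 422 against 423 FPKM and Lpl at 743 against 814 FPKM. The list summed to 1193 against 1352 FPKM, most of it from Lpl and Fabp4, while the median log2 ratio of the 9 tested was -1.74. Of 4 brown adipocyte markers, Ucp1 was listed at 0 in the CHAPIR heart, against 4.91 FPKM in the NC heart, Cidea was at 19.8 against 32.9 FPKM, and Cox7a1 and Cox8b, which cardiomyocytes also express, were at 593 against 644 FPKM and 532 against 585 FPKM. Their part in the lower values of the 33 genes was not tested.

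Markers of other cells differed by list. Each of the 10 macrophage markers had a ratio above 0 and 6 passed 1.5-fold, with sums of 479.6 against 278 FPKM, from Cd163 (6.84 against 5.07 FPKM) and Cd68 (11.9 against 8.70 FPKM) to C1qb (82.4 against 41.7 FPKM) and Fcgr1 (3.19 against 1.05 FPKM). Of the other macrophage markers, Adgre1, Lyz2, C1qa and C1qc also passed 1.5-fold. Fibroblast markers had a median of 0.23 and sums of 699 against 585 FPKM, with Col3a1 (66.7 against 37.4 FPKM) and Col1a1 (21.4 against 13.7 FPKM) past 1.5-fold and Lum and Tcf21 lowest (-0.19 and -0.20). Endothelial markers had a median of 0.11 and sums of 225 against 207 FPKM, from Emcn (-0.26) and Cldn5 (-0.04) to Tie1 (0.22) and Kdr (0.34). The 5 red cell markers tested had a median of 0.32 and sums of 3037 against 2404 FPKM, from Hba-a2 (0.30) and Hba-a1 (0.31) to Hbb-bt (0.35) and Hbb-bs (0.38). Of 10 skeletal muscle markers 8 were not listed, and Tnni2 and Pvalb were at 0.660 and 0.654 FPKM in the CHAPIR heart, against 1.67 and 0.244 FPKM in the NC heart. The part of these cells in the ratios was not tested.

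Mitochondrially encoded genes had a median log2 ratio of 0.11 over 13 genes, and took 34.1% of the summed gene values in the CHAPIR heart and 32.2% in the NC heart. Against the sum of all other genes, the 33 members made up 2.82% in the CHAPIR heart and 3.15% in the NC heart. Rescaling both libraries by the sum of nuclear genes, leaving out the top 50 of all genes, left 32 of 33 ratios below 0, with a median of -0.15.

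**Figure D4:**
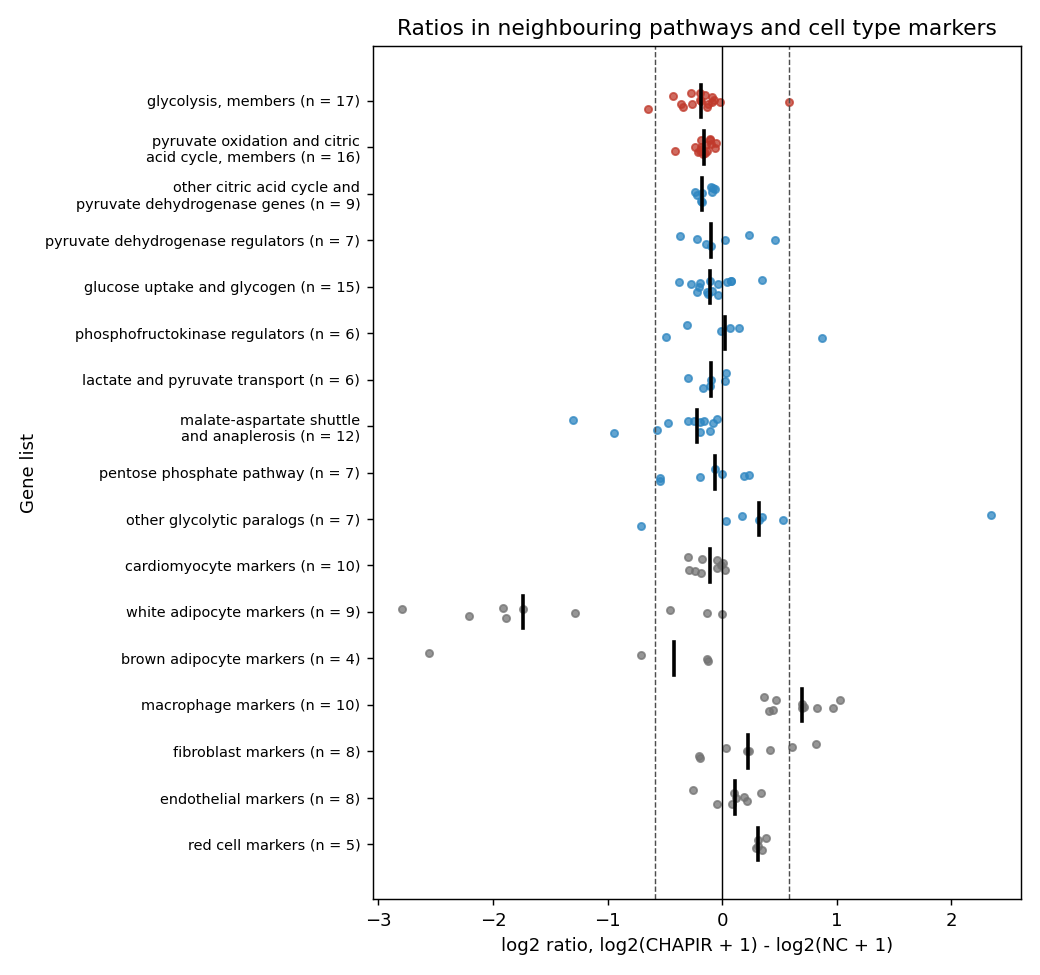
The log2 ratio of CHAPIR over NC (x axis) for single genes of each list, with list medians as black ticks, members in red, neighbouring pathways in blue and cell type markers in grey. Dashed lines mark 1.5-fold, and points of genes listed at 0 in a library (Eno1b, Retn and Ucp1) depend on the pseudocount. The medians of both member groups (-0.19 and -0.16) lie left of 0, as do those of the other citric acid cycle genes and the cardiomyocyte markers (-0.11).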

How the data were processed

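Per the labels' protocols, heart RNA was isolated with Trizol and random-primed libraries kept strand by dUTP. The deposited table holds 1 value per Ensembl transcript and library, taken as FPKM made by the authors. The unit is not named and was inferred: values times length in kilobases summed to 739668 (CHAPIR) and 732588 (NC), under the limit of 1000000 that FPKM allows. If they were TPM, each library's ratios would change by 1 constant factor. Cutadapt, HISAT2 2.0.5, StringTie, STAR 2.5.2b and GRCm38 are named in the submitters' processing notes, without roles. Every listed transcript reached 0.5 in at least 1 heart, and those below that in both were not analysed here. Depth is unknown, since no counts were used, and intervals from counting are not given.

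Of 23178 transcripts, 23128 matched GENCODE M21 (same build) by identifier without version and were summed to 12395 genes. Genes at 1 FPKM in at least 1 library were tested against a fold threshold of 1.5, and a lower one of 25% higher or 20% lower, with a pseudocount of 1 (Python 3.11.15, pandas 2.3.3). Shared windows are exact matches of 50 bases, on either strand, between the transcript of a member that led in the NC library and any transcript of another GENCODE gene. The members and lists were chosen with earlier results of these data known. Named genes are all members, the 2 highest and 2 lowest of each list, those past 1.5-fold and Y-linked genes. Some genes that this rule names are not reported here. Genes named beyond that rule were chosen after their values were seen. The code was tested on simulated data with known changes. Alternatives were pseudocounts of 0.1 and 5, no filter or a mean of 5 FPKM, centred ratios, quantile normalization, the rescaling described above, the most abundant or same-version transcripts only, and subsets of the members.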

Additional observations from a re-analysis of the deposited data

How the results depend on the processing

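No paired analysis was possible because the CHAPIR and NC groups have a library each. The depth of both is unknown, and the spread between animals was not measured. The count of members with a ratio below 0 was 32, and was 29 to 32 over the alternatives that kept at least 30 members. The median, -0.17, lay between -0.18 and -0.15 in every alternative. The 1 member higher at 1.5-fold (Pfkp) became 0 with a pseudocount of 5, with centred ratios and with quantile normalization. The 1 lower (Pgk1) became 3 with the most abundant transcript only, where Ogdh was at -1.27 and Eno3 at -0.77, because only 1 transcript was then read. It became 0 among autosomal members, since Pgk1 is X-linked. Members past the lower threshold of 25% higher numbered 1, and 2 with only transcripts whose version is that of the annotation, where the main transcript of Pfkm was dropped and its log2 ratio was 0.54. Among the 13 members with 1 listed transcript, fewer genes were read: 12 had a ratio below 0 and 2 were at least 20% lower, against 5. The alternatives limited to autosomal members and to 1 listed transcript were chosen after seeing the data. Of the other values, 3 member ratios moved by more than the SD of genes of like level and 293 did not. The same held for 1 step total and 139 others, for 0 and 72 list medians, and, against an SD of 1.09 points over the main differences, for 10 and 55 isozyme shares. The SDs of genes of like level were 0.45, 0.39 and 0.32 from the lowest level to the highest, larger than most member ratios. A ratio could thus change sign and not count as moved. The phosphofructokinase total did so with same-version transcripts (-0.163 to 0.120), and Idh2 with quantile normalization (-0.065 to 0.074). The changed filters on low values could not alter any member ratio, so these counts say little about stability. With the most abundant transcript only, share differences were 4.83 points for Hk1, -2.80 for Eno3 and, with the sign turned, -7.56 for Ogdh and 7.56 for Dlst. With same-version transcripts, which drop the main Pfkm transcript, they were 9.63 points for Pfkp and, with the sign turned, 2.52 for Pfkm and -12.2 for Pfkl. Pdha1 turned to 0.977 points with quantile normalization.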
